A study of Mus musculus with 8 samples.

Results

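The voltage-gated sodium and calcium channel genes were taken as every protein-coding gene whose mouse symbol names a sodium channel alpha or beta subunit (Scn followed by a number and a or b) or a calcium channel alpha1, alpha2delta, beta or gamma subunit (Cacna, Cacnb or Cacng). That rule found 40 of the 38924 genes in the files, and 34 of them passed the filter on low counts among 15208 genes tested. They comprise 10 sodium channel alpha, 4 sodium channel beta, 4 L-type, 3 P/Q-, N- and R-type and 3 T-type calcium channel alpha1, 4 beta, 4 alpha2delta and 8 gamma subunit genes.

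A voltage-gated sodium channel is built on 1 large alpha subunit that forms the pore and opens on depolarisation to start and carry the action potential, and beta subunits set its gating and its place in the membrane. A voltage-gated calcium channel has an alpha1 subunit as its pore, an intracellular beta subunit and an extracellular alpha2delta subunit that bring it to the surface, and it couples depolarisation to transmitter release at the nerve terminal and to firing pattern in the soma and dendrites. In a motor neuron, sodium channels cluster at the axon initial segment and the nodes of Ranvier, and calcium channels of the P/Q type serve release at the mature neuromuscular junction.

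The series asked which mRNAs are bound to ribosomes in motor neurons after the sciatic nerve was crushed on 1 side. All 8 mice, on a B6.CgxB6.129 background and with wild-type Gars, carried an Rpl22 allele whose ribosomal protein gains an HA tag where Cre recombinase is active, and an anti-HA antibody pulled the tagged ribosomes out of whole spinal cord. The groups of 2 mice each were Chat-Cre with a crushed nerve (animals 35 and 52, aged 18 and 9 weeks), no Cre with a crushed nerve (51 and 58, both 9 weeks), Chat-Cre uncrushed (3 and 10, both 8 weeks) and no Cre uncrushed (4 and 6, both 8 weeks). Chat-Cre acts in all cholinergic cells, not in motor neurons alone, and the no-Cre libraries hold mRNA that came down without the tag. Because the cord was taken whole and 1 nerve was crushed, motor neurons with injured and uninjured axons are averaged, and the labels do not state how long after the crush the cord was taken. Crush cannot be told apart from age, nor from a number that only the uncrushed titles share. For animal 3 (Cre, uncrushed) and animal 4 (no Cre, uncrushed) the genotype entries contradict the titles, and groups follow the titles.

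Library totals ran from 4826979 to 11522721 expected counts, of which the channel genes held 3675 to 29963 counts per library, or 0.075 to 0.264%. Mitochondrial ribosomal RNA took 1.613 to 5.531% of counts with Cre and 11.47 to 48.21% without. Chat, the enzyme that makes acetylcholine, was at 126, 97.7, 78.2 and 90.9 CPM (counts scaled to library size) in the Cre libraries and at 3.83 to 5.16 CPM in the no-Cre libraries, so each title matched this marker. Summed markers of oligodendrocytes stood at 4410 to 7650 CPM without Cre and at 701 to 1790 CPM with Cre, and those of astrocytes at 1410 to 3060 and 190 to 488 CPM. Summed pan-neuronal markers stood at 2510 to 4800 CPM without Cre and 12900 to 16700 CPM with Cre. Their median log2 difference with Cre was 2.21 uncrushed and 2.53 crushed. The medians were 4.61 and 4.08 over the cholinergic motor neuron markers and -1.25 and -0.81 over the interneuron markers. Every Cre comparison therefore sets mRNA of tagged cells, together with mRNA that came down untagged, against mRNA that came down untagged alone. It compares what was precipitated, so a lower value with Cre does not mean less of that mRNA in the cord. Within a precipitate, the number of cells of a type and the RNA per cell cannot be told apart. The p-values test differences of group means against a spread between animals that was estimated over all 4 groups, with information shared across genes.

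CPM above and below have library totals scaled by the trimmed mean of M values (TMM). Animals are listed below in the order 4 and 6 for no Cre uncrushed and 3 and 10 for Cre uncrushed. The crushed order is 51 and 58 for no Cre and 35 and 52 for Cre. CPM serves to compare 1 gene between libraries. Levels of different genes were compared only as CPM per kilobase of transcript. A gene was called at an edgeR quasi-likelihood p below 0.05 after Benjamini-Hochberg adjustment over all 15208 genes tested, and a value after ± is the approximate standard error of the log2 fold change (n = 2 animals per group).

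In uncrushed mice 10 of the 34 tested channel genes were higher with Cre than without and 7 were lower, where 20.6% of all genes tested were called higher and 21.9% lower. In crushed mice 6 were higher and 5 lower, against 21.6% and 21.3% of all genes. These counts are 29.4 and 20.6% of the channel genes uncrushed and 17.6 and 14.7% crushed, and the calls over all genes likewise lay in both directions. The median log2 difference of the channel genes was 0.08 in uncrushed and 0.01 in crushed mice, beside -0.03 and -0.08 over all genes. In uncrushed mice both Cre libraries lay above both no-Cre libraries for 35.3% of the tested channel genes and below for 32.4%. Over all genes these shares were 36.2 and 35%. In crushed mice they were 32.4 and 29.4%, beside 37.9 and 40.3% over all genes. Groups without overlap, as given for single genes below, were thus no more frequent among the channel genes. The genes called higher in both comparisons were Scn1a, Scn8a, Cacnb1, Cacna2d3, Cacng2 and Cacng5, and those called lower in both were Scn2a, Scn7a, Cacna1e, Cacna1i and Cacng4. Scn4b, Cacna1g and Cacna1h were called higher, and Scn11a and Cacna1b lower, in uncrushed mice alone, and the interaction of crush and Cre called 0 of them with edgeR. No gene was called in opposite directions. Scaling by library size alone gave 11 higher and 2 lower in uncrushed mice and 8 higher and 2 lower in crushed mice, where under that scaling all genes gave 31.3% higher and 9.62% lower uncrushed and 18.7% and 12.6% crushed. Without both animals of contradictory genotype, 5 were higher and 6 lower in uncrushed mice, beside 10.3% and 9.86% of all genes. Left out singly, no-Cre animal 6 left 2 genes lower in uncrushed mice, Cre animal 10 left 3 and Cre animal 3 left 4, and each crushed library left 2 or 3 lower in crushed mice. In those fits 17.1, 13.6 and 11% of all genes were lower in uncrushed mice and 6.1 to 13.4% in crushed mice. The comparison in uncrushed mice shares its Cre libraries with the comparison of crush among Cre mice.

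**Figure D1:**
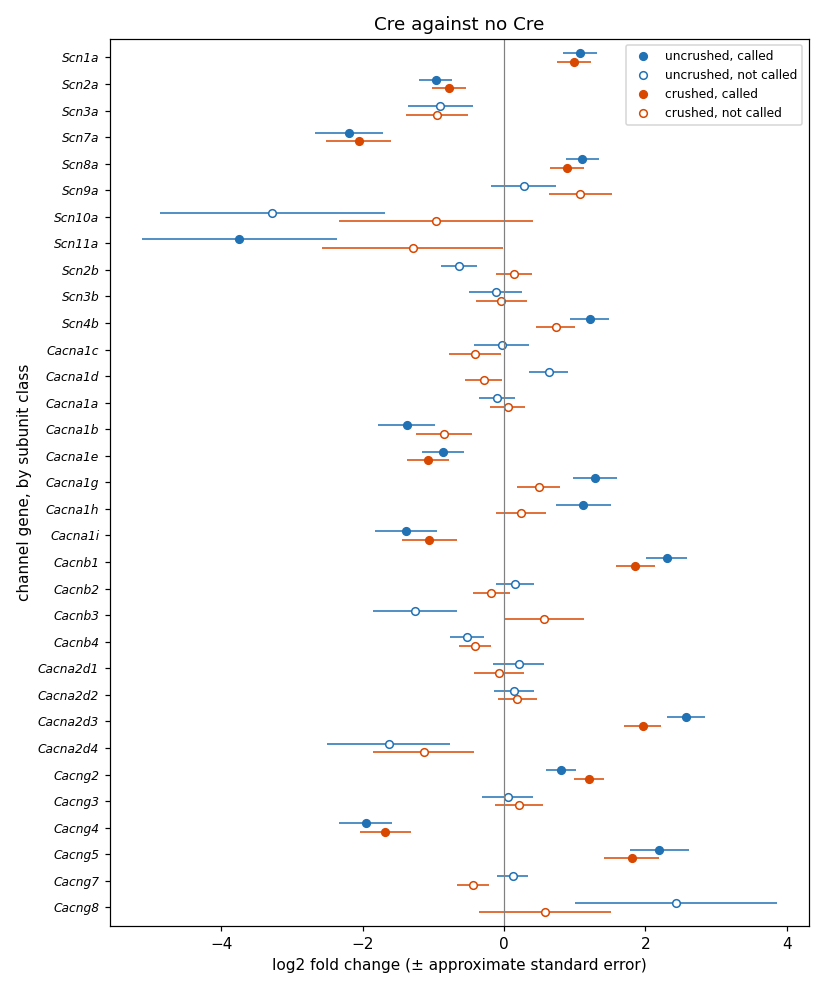
The log2 fold change of Cre over no Cre (x axis, bars are approximate standard errors) is plotted for 33 tested channel genes (y axis, by subunit class) in uncrushed mice (blue) and crushed mice (orange), with filled points for called genes and open points for the others. Cacna2d3 and Cacnb1 lie at 1.86 or more in both comparisons, and Scn7a and Cacng4 at -1.68 or less.

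Among the sodium channel alpha subunits, Scn1a and Scn8a were higher with Cre and Scn2a and Scn7a lower, in uncrushed and in crushed mice alike. Scn1a and Scn8a both encode neuronal pores, and the Scn8a channel is the main one at mature nodes of Ranvier and initial segments. Scn1a stood at 208 and 265 CPM without Cre and 545 and 455 CPM with Cre in uncrushed mice, and at 164 and 185 CPM against 359 and 334 CPM in crushed mice. Scn8a stood at 206 and 263 against 550 and 467 CPM uncrushed, and at 177 and 212 against 364 and 356 CPM crushed. Neither gene's groups overlapped. The log2 fold change of Scn1a was 1.08 ± 0.24 uncrushed (adjusted p = 0.00446) and 0.99 ± 0.24 crushed (adjusted p = 0.00699). That of Scn8a was 1.11 ± 0.24 (adjusted p = 0.00399) and 0.89 ± 0.24 (adjusted p = 0.0125). Without both animals of contradictory genotype the uncrushed calls of Scn1a and Scn8a were lost, at log2 differences of 0.82 and 0.87 (adjusted p = 0.12 and 0.11). In crushed mice the Scn1a call was lost without Cre animal 35 (adjusted p = 0.0636), and the Scn8a call without Cre animal 35 or 52 (adjusted p = 0.083 and 0.0545).

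Scn2a, whose channel is known from unmyelinated axons and early initial segments, went the other way. It stood at 50.3 and 60.6 CPM without Cre and 31.6 and 25.2 CPM with Cre in uncrushed mice, and at 51.8 and 44.1 against 25.6 and 30.3 CPM in crushed mice, with no overlap. The log2 differences were -0.97 ± 0.24 (adjusted p = 0.00876) and -0.78 ± 0.24 (adjusted p = 0.022). Scn7a, the sodium-sensing channel found in glia and ensheathing cells, had the larger difference, with 17.9 and 36.1 against 6.04 and 5.85 CPM uncrushed and 19.7 and 42.5 against 9.87 and 4.91 CPM crushed. Its log2 differences were -2.19 ± 0.48 (adjusted p = 0.00443) and -2.06 ± 0.46 (adjusted p = 0.00488). Summed Schwann cell markers moved the same way, at 136 to 411 CPM without Cre and 16.7 to 57.8 CPM with Cre. Summed oligodendrocyte and astrocyte markers did too, as given above. The part of these cells in the Scn7a difference was not tested. Scn2a lost its uncrushed call without no-Cre animal 6 or Cre animal 10 (adjusted p = 0.0564 and 0.103) and its crushed call without animal 51, 35 or 52 (adjusted p = 0.115, 0.23 and 0.0861). Scn7a lost its call without no-Cre animal 6 uncrushed (-1.52, adjusted p = 0.0548) and without animal 58 crushed (-1.36, adjusted p = 0.0577). Under scaling by library size alone Scn2a was not called in either comparison, at -0.29 and -0.66 (adjusted p = 0.598 and 0.222). With no filter on low counts it was not called in crushed mice.

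The 250 bases before the RefSeq start of Scn1a (minus strand) and before 1 of the RefSeq starts of Scn2a (plus strand) are shown 5′ to 3′ from build GRCm38.p6, because these alpha subunit genes, both on chromosome 2, differed in opposite directions with Cre. Capitals mark every match to the motifs searched, which were the GC box GGGCGG, the core promoter motif TATAAA and the upstream motif CCAAT, each on both strands.
Scn1a promoter, chr2:66440838-66441087: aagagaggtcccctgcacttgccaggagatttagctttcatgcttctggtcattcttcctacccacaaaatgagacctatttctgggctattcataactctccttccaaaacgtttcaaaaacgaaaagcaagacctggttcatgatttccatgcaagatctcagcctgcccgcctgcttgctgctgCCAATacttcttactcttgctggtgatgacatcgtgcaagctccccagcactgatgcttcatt
Scn2a promoter, chr2:65668436-65668685: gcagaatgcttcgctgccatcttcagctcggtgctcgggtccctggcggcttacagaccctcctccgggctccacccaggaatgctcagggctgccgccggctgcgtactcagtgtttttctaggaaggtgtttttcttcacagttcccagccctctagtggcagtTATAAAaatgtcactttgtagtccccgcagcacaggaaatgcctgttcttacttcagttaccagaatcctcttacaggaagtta

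The Scn2a window held TATAAA and the Scn1a window CCAAT, and neither held a GC box. Another Scn2a window held none of these motifs. RefSeq promoter windows were found for 30 of the 40 channel genes, 41 windows in all. GGGCGG lay in 36.6% of these windows and in 32.7% of all 32851 RefSeq windows of that length, TATAAA in 4.88% and 12.4%, and CCAAT in 24.4% and 33.8%. Median GC content was 56.8% over the channel windows and 52.4% over all windows. A match of letters is a description of the window and no measure of binding.

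Scn3a and Scn9a, the first known from embryonic neurons and the other from pain-sensing neurons, were not called. Scn3a lay at 7.41 to 23.5 CPM without Cre and 7.55 to 9.35 CPM with Cre (log2 differences -0.90 ± 0.46 and -0.95 ± 0.44, adjusted p = 0.136 and 0.101). Scn9a stood at 12.1 and 26.2 CPM without Cre and 47.4 and 32.8 CPM with Cre in crushed mice, groups that did not overlap, with a log2 difference of 1.08 ± 0.45 (adjusted p = 0.0705). In uncrushed mice its groups overlapped, at 14.4 and 28.8 against 35.5 and 17.4 CPM. DESeq2 did call Scn9a in crushed mice (1.09, adjusted p = 0.0485).

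The nociceptor channels Scn10a and Scn11a had uncrushed groups that did not overlap and crushed groups that did. Scn10a had 20 and 45 counts without Cre and 2 and 15 with Cre in uncrushed mice, then 1 and 70 without Cre and 91 and 1 with Cre in crushed mice. Scn11a had 29 and 42 against 3 and 11 counts uncrushed, and 2 and 34 against 36 and 0 crushed. In crushed mice both were high in no-Cre animal 58 and Cre animal 35 and near 0 in their group mates. In uncrushed mice Scn11a was called lower (-3.75 ± 1.38, adjusted p = 0.0474) and Scn10a was not (-3.28 ± 1.59, adjusted p = 0.115). That Scn11a call was lost without any 1 of the 4 libraries, at adjusted p = 0.106 without animal 4, 0.11 without animal 6, 0.222 without animal 3 and 0.0798 without animal 10. It was also lost under DESeq2 (adjusted p = 0.159), under scaling by library size alone (0.0555) and without both animals of contradictory genotype (0.306). A summed list of 8 sensory ganglion markers stood at 20.7 and 19.8 CPM without Cre uncrushed, 1.07 and 4.03 CPM with Cre uncrushed, 1.36 and 15.8 CPM without Cre crushed and 4.81 and 1.82 CPM with Cre crushed, with 0 to 4 of its genes at 0 in a library. Its part in the Scn10a and Scn11a values was not tested.

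Scn4a, the skeletal muscle channel, did not pass the filter, with 0 to 8 counts per library. The 6 skeletal muscle markers summed to 1.74 to 239 CPM over the libraries. The sum was 239 CPM in no-Cre crushed animal 51, 212 CPM in Cre uncrushed animal 3 and 9.37 CPM in animal 10. Scn4a made up 0.272% of the summed sodium channel alpha level per kilobase in animal 51 and 0% in animal 3. The part of muscle in the Scn4a values was not tested.

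Within the sodium channel alpha class, summed as CPM per kilobase, Scn1a held 65.8 and 65.9% with Cre and 56.8 and 54.9% without in uncrushed mice, and Scn8a 28.4 and 29.0% against 24.1 and 23.4%. Scn2a held 2.10 and 2.02% of the class with Cre and 7.59 and 6.94% without. In crushed mice the Scn1a share was 62.6 and 62.8% with Cre and 54.2 and 51.0% without. On this scale Scn1a was the most abundant of the channel genes in all 4 groups, at means of 117 (Cre uncrushed), 55.2 (no Cre uncrushed), 80.9 (Cre crushed) and 40.7 (no Cre crushed) CPM per kilobase.

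**Figure D2:**
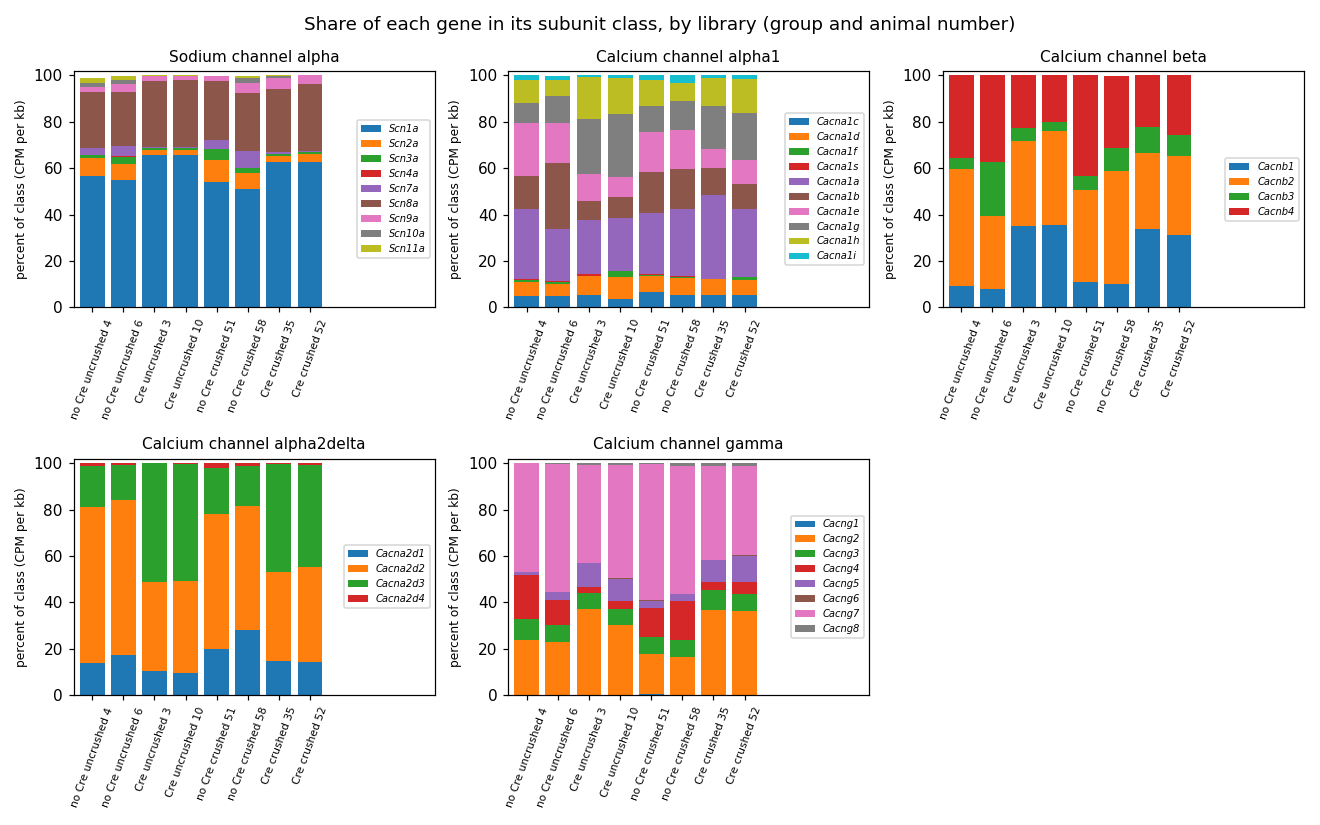
Stacked bars give each gene's percent of its subunit class, computed from CPM per kilobase, in each of the 8 libraries (x axis, group and animal number), with 1 panel for each of 5 classes. The sodium channel beta class is not drawn. Cacna2d3 takes 44.0 to 51.3% of the alpha2delta class in the Cre libraries and 15.2 to 20.1% in the no-Cre libraries.

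Of the sodium channel beta subunits, Scn4b was higher with Cre in uncrushed mice. Scn4b, whose subunit is linked to the pore by a disulfide bond and is tied to resurgent current, stood at 152 and 103 CPM without Cre and 265 and 324 CPM with Cre, a log2 difference of 1.21 ± 0.28 (adjusted p = 0.00608). In crushed mice it stood at 66.9 and 105 against 141 and 144 CPM, again with no overlap, and missed the threshold (0.73 ± 0.28, adjusted p = 0.0534). DESeq2 called it there (0.74, adjusted p = 0.0268), as did edgeR without no-Cre animal 58 (1.14, adjusted p = 0.0142).

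Scn2b, the other disulfide-linked subunit, was at 71.4 and 82.3 against 51.9 and 46.6 CPM uncrushed (-0.64 ± 0.25, adjusted p = 0.0569) and at 32.6 and 50.3 against 44.4 and 46.6 CPM crushed. The first pair of groups did not overlap and the second did. Its uncrushed difference changed sign under scaling by library size alone (0.04). Scn3b lay between 5.98 and 12.8 CPM in all 8 libraries and its log2 differences were -0.12 and -0.04. Scn2b and Scn4b are neighbours on chromosome 9 in RefSeq, with Scn4b called in uncrushed mice and Scn2b not.

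Of the calcium channel alpha1 genes in uncrushed mice, the T-type genes Cacna1g and Cacna1h were higher with Cre, and the N-type Cacna1b, the R-type Cacna1e and the T-type Cacna1i were lower. T-type channels open near rest and shape burst firing, while N- and R-type channels open on strong depolarisation and serve release and dendritic calcium entry. Cacna1g stood at 14.4 and 29.4 CPM without Cre and 57.7 and 51 CPM with Cre uncrushed (1.29 ± 0.31, adjusted p = 0.0071). In crushed mice its groups stood at 32 and 25.5 against 39.4 and 41.5 CPM, without overlap (0.49 ± 0.30, adjusted p = 0.198). Cacna1h stood at 10.1 and 10.7 against 27.5 and 17.8 CPM uncrushed (1.12 ± 0.39, adjusted p = 0.0377), and its crushed groups overlapped. Without both animals of contradictory genotype neither was called, at 0.84 and 0.78 (adjusted p = 0.11 and 0.312). Cacna1h also lost its call without animal 4, 6 or 3, and with only the groups compared.

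Cacna1e was lower with Cre in both comparisons. It stood at 96.3 and 109 against 72.5 and 41 CPM uncrushed (-0.86 ± 0.30, adjusted p = 0.039) and at 121 and 82 against 43.6 and 52.6 CPM crushed (-1.08 ± 0.30, adjusted p = 0.0139), with no overlap. Cacna1i stood at 6.63 and 8.28 against 2.24 and 3.51 CPM uncrushed (-1.39 ± 0.44, adjusted p = 0.025) and at 9.64 and 11.2 against 4.37 and 5.62 CPM crushed (-1.06 ± 0.39, adjusted p = 0.0488). Both genes were low in all 4 Cre libraries against all 4 no-Cre libraries. The summed interneuron markers were too, at 464 to 658 CPM without Cre and 181 to 269 CPM with Cre. Glial markers fell further, with median log2 differences of -3.15 and -2.33 for oligodendrocytes, -3.06 and -2.58 for astrocytes and -3.69 and -2.38 for microglia (uncrushed and crushed). Pan-neuronal markers went the other way, as given above. The part of any of these cells was not tested. Cacna1b was called lower in uncrushed mice (37 and 107 against 30 and 25.8 CPM, -1.38 ± 0.40, adjusted p = 0.017) and was at 74.8 and 51.5 against 37.3 and 32.7 CPM crushed (-0.85 ± 0.39, adjusted p = 0.0958). No-Cre animal 6 held the high value of Cacna1b, and without it the difference was -0.34 (adjusted p = 0.403).

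Leaving out single libraries ended the calls of these 3 lower genes. Cacna1b was also not called without animal 3 or 10 (adjusted p = 0.076 and 0.109). Cacna1e was not called without animal 4, 6 or 10 uncrushed (adjusted p = 0.0826, 0.168 and 0.321; log2 differences -0.90, -0.69 and -0.47), nor without animal 51, 35 or 52 crushed (adjusted p = 0.119, 0.139 and 0.0503). Cacna1i was not called without animal 6 or 3 uncrushed (adjusted p = 0.104 and 0.175), nor without any 1 of the crushed libraries (adjusted p = 0.116 to 0.322). It was also not called under DESeq2 (adjusted p = 0.0511 uncrushed and 0.115 crushed) or with no filter on low counts (0.0561 and 0.14). The same held in uncrushed mice with only the groups compared (0.0711) and without both animals of contradictory genotype (0.127), and in crushed mice under scaling by library size alone (0.187). All 3 also lost their uncrushed calls under scaling by library size alone, with log2 differences of -0.78 for Cacna1b, -0.16 for Cacna1e and -0.73 for Cacna1i. Cacna1e lost its crushed call under that scaling too.

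Cacna1a, the P/Q-type pore of the mature neuromuscular junction, was not called in any comparison. It stood at 42.5 and 47.3 CPM without Cre and 47.9 and 35.9 CPM with Cre uncrushed (-0.10 ± 0.26). In crushed mice it stood at 63.2 and 47.3 against 64.7 and 49.5 CPM (0.05 ± 0.25), and the groups overlapped in both comparisons. Its deposited effective length was 4.49 to 7.09 kilobases with Cre and 2.18 to 3.34 kilobases without, which these values do not take into account. Among the L-type pores, Cacna1d stood at 19.1 and 23.5 against 35.4 and 31 CPM uncrushed, with no overlap (0.63 ± 0.27, adjusted p = 0.081), and at 35 and 24.2 against 25.3 and 23.3 CPM crushed, where the groups overlapped. Scaling by library size alone called it in uncrushed mice (1.31, adjusted p = 0.0299). Cacna1c, the other tested L-type pore, lay between 10.3 and 27.5 CPM with overlapping groups in both comparisons.

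Cacna1s and Cacna1f, the pores of skeletal muscle and retina, did not pass the filter. Cacna1s had 0 to 4 counts in 7 libraries and 25 in Cre uncrushed animal 3, the library in which the muscle markers summed to 212 CPM. The largest muscle marker sum, 239 CPM, was in no-Cre crushed animal 51, which is among those 7 libraries. The part of muscle in the Cacna1s values was not tested. Cacna1f had 0 to 14 counts.

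Cacnb1 was the beta subunit gene that differed with Cre. Calcium channel beta subunits bind the intracellular loop of the pore and raise its surface level, and Cacnb1 is the form of skeletal muscle and of some neurons. It stood at 7.41 and 6.41 CPM without Cre and 36.1 and 31.5 CPM with Cre in uncrushed mice, and at 9.77 and 9.33 against 38.4 and 31.1 CPM in crushed mice. All 4 Cre libraries lay above all 4 no-Cre libraries. The log2 differences were 2.30 ± 0.29 (adjusted p = 0.000218) and 1.86 ± 0.27 (adjusted p = 0.000411), and both calls held under each of the 10 alternatives tried in that comparison. Muscle markers summed to 106 and 23.8 CPM (no Cre) against 212 and 9.37 CPM (Cre) uncrushed, and to 239 and 58.6 CPM (no Cre) against 10.1 and 1.74 CPM (Cre) crushed, and their part in the Cacnb1 values was not tested. Within its class, as CPM per kilobase, Cacnb1 held 35.2 and 35.5% with Cre against 9.10 and 8.07% without uncrushed, and 33.8 and 31.2% against 10.9 and 10.1% crushed.

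The other beta genes were not called. Cacnb4, the main beta subunit of many brain neurons, stood at 90.5 and 91.9 against 71.9 and 55.3 CPM uncrushed (-0.52 ± 0.24, adjusted p = 0.0981) and at 121 and 89 against 77.8 and 80.3 CPM crushed (-0.41 ± 0.23, adjusted p = 0.173), without overlap, and its uncrushed difference became 0.18 under scaling by library size alone. Cacnb2 lay between 27.2 and 49.1 CPM. Cacnb3 was at 3.9 and 19 against 6.14 and 3.64 CPM uncrushed (-1.26 ± 0.60, adjusted p = 0.11) and at 5.7 and 9.5 against 13.2 and 9.26 CPM crushed (0.57 ± 0.56, adjusted p = 0.427), with overlap in both. Its uncrushed difference was 0.41 without no-Cre animal 6 and -1.90 without animal 4 (adjusted p = 0.0119).

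Cacna2d3 had the largest difference with Cre of the 4 alpha2delta genes in both comparisons and was the only one called. The alpha2delta subunits are extracellular, carry the channel to the terminal, and in the Cacna2d1 and Cacna2d2 forms bind gabapentin. Cacna2d3 stood at 13.3 and 21.6 CPM without Cre and 116 and 95.6 CPM with Cre uncrushed, and at 21.4 and 19.5 against 79.5 and 79.4 CPM crushed, with every Cre library above every no-Cre library. The log2 differences were 2.58 ± 0.27 (adjusted p = 8.5e-05) and 1.96 ± 0.26 (adjusted p = 0.000268), and both calls held under each of the 10 alternatives. As CPM per kilobase, Cacna2d3 held 51.3 and 50.8% of its class with Cre against 17.7 and 15.2% without in uncrushed mice, and Cacna2d2 38.1 and 39.6% against 67.2 and 66.6%. In crushed mice Cacna2d3 held 46.4 and 44.0% against 20.1 and 17.0%.

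The 250 bases before the RefSeq start of Cacna2d3 and before 1 RefSeq start of Cacnb1 (both minus strand, GRCm38.p6) are shown 5′ to 3′. These genes kept their calls with Cre under every alternative, as did Cacng5, whose windows are not shown. Capitals mark the same motifs on both strands.
Cacna2d3 promoter, chr14:29721865-29722114: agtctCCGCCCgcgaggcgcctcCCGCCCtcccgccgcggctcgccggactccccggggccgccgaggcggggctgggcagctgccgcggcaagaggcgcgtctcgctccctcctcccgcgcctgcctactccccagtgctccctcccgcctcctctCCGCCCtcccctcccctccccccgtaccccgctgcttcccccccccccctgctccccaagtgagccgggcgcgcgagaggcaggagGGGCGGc
Cacnb1 promoter, chr11:98022628-98022877: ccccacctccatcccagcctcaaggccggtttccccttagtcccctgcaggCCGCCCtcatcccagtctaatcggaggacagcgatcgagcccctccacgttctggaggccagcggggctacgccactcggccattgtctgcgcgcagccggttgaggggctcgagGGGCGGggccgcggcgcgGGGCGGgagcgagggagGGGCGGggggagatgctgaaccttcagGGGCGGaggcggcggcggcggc

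The Cacna2d3 window held 4 GC boxes and the Cacnb1 window 5, with neither TATAAA nor CCAAT, at 80 and 73.2% GC. Another RefSeq start of Cacnb1 had a window with 0 GC boxes at 56% GC. Of the Cacng5 windows, 1 held 0 GC boxes at 56.8% GC, and another held 2 GC boxes and 1 CCAAT at 62% GC.

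Cacna2d1 and Cacna2d2 were not called. Cacna2d1 lay at 19.5 and 47 against 44.8 and 33.3 CPM uncrushed and at 40.2 and 61 against 47.3 and 49 CPM crushed, and Cacna2d2 at 33.1 and 62.5 against 56.8 and 49 CPM uncrushed and at 40.7 and 40.5 against 43.6 and 48.8 CPM crushed. Their log2 differences lay between -0.07 and 0.21. Cacna2d4, known from the retina, was at 0.487 to 3.26 CPM, lower in all Cre libraries of each comparison (-1.63 ± 0.87 and -1.14 ± 0.71, adjusted p = 0.149 and 0.213). Its counts were few, at group totals of 10 without Cre and 9 with Cre uncrushed, and 40 and 37 crushed.

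Of the gamma genes, Cacng2 and Cacng5 were higher with Cre and Cacng4 was lower, in both comparisons. Most gamma proteins other than the muscle form Cacng1 are known as auxiliary subunits of AMPA-type glutamate receptors, and Cacng2 is stargazin. Cacng5 stood at 2.34 and 8.01 CPM without Cre and 25.5 and 24.6 CPM with Cre uncrushed, and at 6.79 and 6.66 against 22.2 and 25.2 CPM crushed (log2 differences 2.20 ± 0.42 and 1.81 ± 0.39, adjusted p = 0.00208 and 0.00375). Cacng2 stood at 72.9 and 73.2 against 139 and 118 CPM uncrushed and at 56.3 and 54.5 against 132 and 124 CPM crushed (0.81 ± 0.21 and 1.20 ± 0.21, adjusted p = 0.0104 and 0.00129). Cacng4 was lower, with 36.3 and 20.8 against 5.94 and 8.72 CPM uncrushed and 25 and 34.5 against 7.53 and 11.1 CPM crushed (-1.96 ± 0.38 and -1.68 ± 0.36, adjusted p = 0.00213 and 0.00378). None of these groups overlapped. Cacng4 and Cacng5 lie next to each other on chromosome 11 in RefSeq and differed in opposite directions.

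The Cacng5 calls held under all 10 alternatives in each comparison. Cacng2 held in crushed mice under all 10 and lost its uncrushed call without Cre animal 3 (0.72, adjusted p = 0.0872) and without both animals of contradictory genotype (0.73, adjusted p = 0.131). Cacng4 lost its uncrushed call in the latter setting (-1.21, adjusted p = 0.0913) and its crushed call without Cre animal 35 (-1.39, adjusted p = 0.0627).

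Cacng7, at 50.1 to 73 CPM, and Cacng3, at 7.33 to 10.1 CPM, were not called. Cacng8, the gamma subunit known from the hippocampus, had 0 and 1 counts without Cre and 8 and 8 with Cre in uncrushed mice, and 3 and 8 against 23 and 14 counts in crushed mice. It was not called in either comparison. Cacng1 and Cacng6 did not pass, with 0 to 3 and 0 to 5 counts, and at such depth a difference was not detectable.

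**Figure D3:**
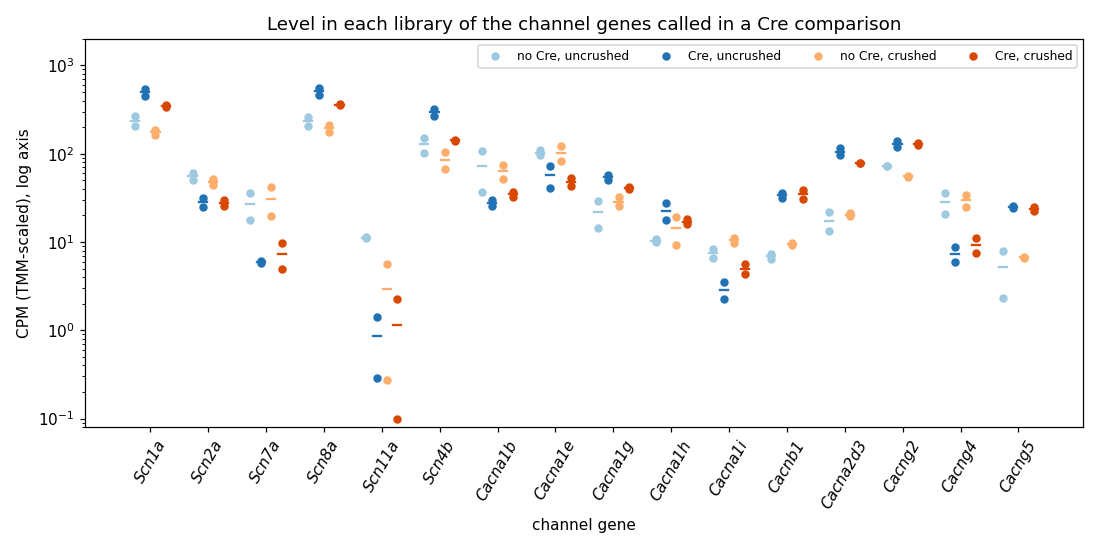
CPM on a log axis (y) is plotted for each library (points) and as the mean of each group of 2 (short lines) for 16 channel genes called in a Cre comparison (x axis), with a value of 0 drawn at 0.1. The Cre points of Cacnb1, Cacna2d3 and Cacng5 lie above all no-Cre points, while the Scn11a points of crushed mice are spread from 0 to 5.66 CPM.

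Crush was then compared with no crush. Of the 34 channel genes, edgeR called 0 in mice with Cre and 0 in mice without, where 0.0723% of all genes were called in each comparison (0.0395% higher and 0.0329% lower with Cre, 0.0197% higher and 0.0526% lower without), and 0 in the interaction, where 0% of all genes were called. At an unadjusted p below 0.05 the numbers were 2, 1 and 3 channel genes (5.88, 2.94 and 8.82%), beside 9.34, 12.8 and 5.95% of all genes. DESeq2 called 1, 0 and 0 channel genes, beside 0.934, 1.15 and 0.0506% of all genes. The median log2 change was 0.06 with Cre and 0.15 without, beside 0.03 and -0.03 over all genes. With Cre, both crushed libraries lay above both uncrushed libraries for 23.5% of the channel genes and below for 23.5%. Over all genes these shares were 26.1 and 23.9%. Without Cre they were 23.5 and 14.7%, beside 19.9 and 19% over all genes. With 2 animals a group, an adjusted p above the threshold does not show that levels were equal.

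Scn4b, the resurgent current subunit, had the smallest p among the channel genes for crush in Cre mice. It stood at 265 and 324 CPM uncrushed and 141 and 144 CPM crushed, with no overlap, for a log2 change of -1.05 ± 0.28 (adjusted p = 0.231 with edgeR). DESeq2 called it lower (-1.04, adjusted p = 0.0313), as did edgeR with no filter on low counts (adjusted p = 0.0287) and with only the groups compared (adjusted p = 0.038). In mice without Cre it stood at 152 and 103 CPM uncrushed and 66.9 and 105 CPM crushed, overlapping (-0.57 ± 0.28, adjusted p = 0.422). The change with Cre against that without did not pass the test of the difference (-0.48 ± 0.39, adjusted p = 0.927).

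Scn1a and Scn8a, the main pores, were lower in both Cre crushed libraries than in both Cre uncrushed libraries. Scn1a stood at 545 and 455 CPM uncrushed against 359 and 334 CPM crushed (-0.53 ± 0.24, adjusted p = 0.522), and Scn8a at 550 and 467 against 364 and 356 CPM (-0.50 ± 0.24, adjusted p = 0.567). In mice without Cre the Scn1a libraries were likewise lower after crush, at 208 and 265 against 164 and 185 CPM (-0.44 ± 0.24, adjusted p = 0.46), a value that became 0.49 under scaling by library size alone. Cacna2d3 stood at 116 and 95.6 against 79.5 and 79.4 CPM with Cre (-0.41 ± 0.24, adjusted p = 0.673), and 0.02 under that scaling. Cacnb1 stood at 36.1 and 31.5 against 38.4 and 31.1 CPM with Cre, a log2 change of 0.04.

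In all, 3 genes had an unadjusted p below 0.05 in the interaction, and none passed adjustment. Scn2b was at 51.9 and 46.6 CPM uncrushed and 44.4 and 46.6 CPM crushed with Cre, against 71.4 and 82.3 and then 32.6 and 50.3 CPM without (difference of log2 changes 0.78 ± 0.35, adjusted p = 0.83). Cacna1d gave -0.92 ± 0.38 and Cacnb3 1.83 ± 0.82, both also at an adjusted p of 0.83. Cacnb3 was higher after crush in both Cre libraries, at 13.2 and 9.26 CPM against 6.14 and 3.64 CPM (1.19 ± 0.57, adjusted p = 0.573).

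For crush with Cre, the class medians of the log2 change were 0.20 for the 8 tested sodium channel alpha genes, -0.27 for the 4 sodium channel beta genes, 0.17 for the 4 calcium channel beta genes, 0.05 for the 4 alpha2delta genes and 0.03 for the 6 tested gamma genes. The 3 P/Q-, N- and R-type genes had a median of 0.33, the 3 T-type genes -0.42 and the 2 tested L-type genes -0.14. Beside them the median log2 change was 0.72 over the oligodendrocyte markers, 0.96 over the astrocyte markers, 1.66 over the microglia markers, 0.33 over the interneuron markers, -0.24 over the cholinergic motor neuron markers and -4.06 over the skeletal muscle markers, with 0 of these markers called. Their part in the channel values was not tested. In the same comparison 3 of the 5 injury markers were called higher, where 0.0395% of all genes were, and the median log2 change of the 5 was 4.85.

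**Figure D4:**
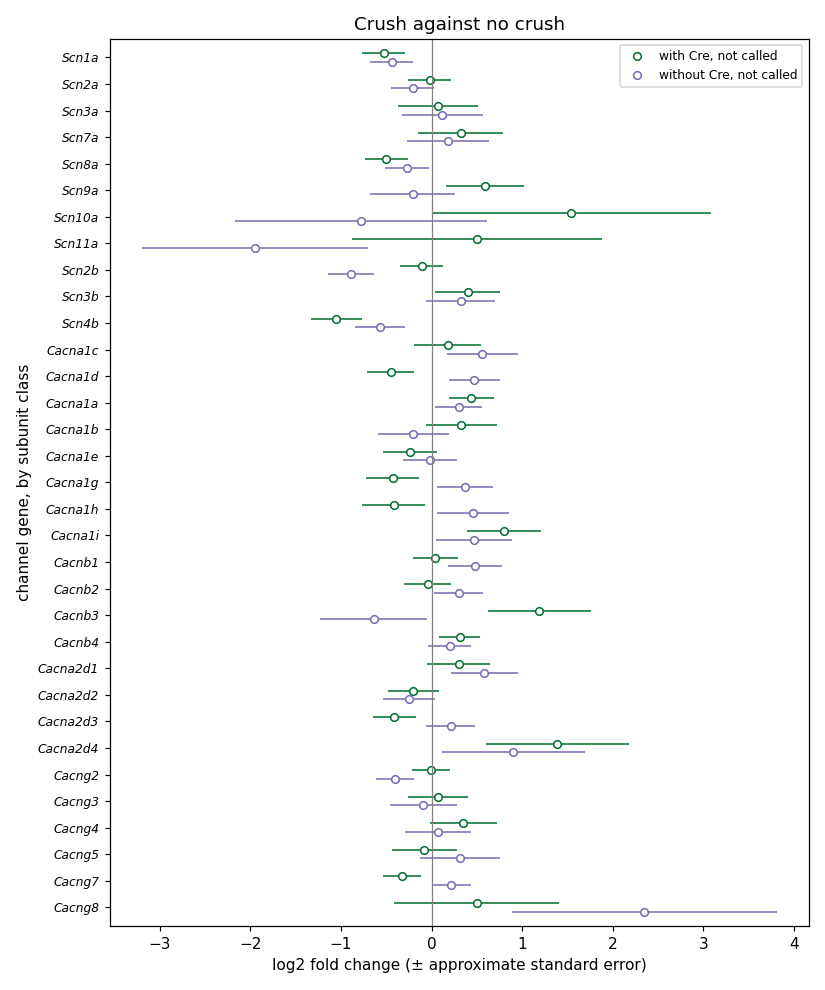
The log2 fold change of crush over no crush (x axis, bars are approximate standard errors) is plotted for 33 tested channel genes (y axis, by subunit class) in mice with Cre (green) and without Cre (purple), with open points because 0 genes were called. Scn4b lies at -1.05 with Cre, and the widest bars belong to Scn10a, Scn11a and Cacng8, which had few counts.

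A list of 43 partners of these channels (node and initial segment scaffolds, intracellular fibroblast growth factors, ubiquitin ligases, the sodium leak complex, adaptors, RGK GTPases, active zone proteins, calmodulins and CaM kinase II) had 40 tested members. In uncrushed mice 15 were higher and 5 lower with Cre (20.6 and 21.9% over all genes), and in crushed mice 14 were higher and 2 lower (21.6 and 21.3%), with median log2 differences of 0.43 and 0.47. Crush against no crush called 0 of them with Cre and 0 without. Fgf11 and Fgf12, intracellular factors that bind the sodium channel tail, were both higher in both comparisons, Fgf12 by 1.75 ± 0.28 uncrushed (adjusted p = 0.000773). Fgf11 stood at 49.1 and 79.3 against 313 and 253 CPM uncrushed and at 50.3 and 54.5 against 226 and 214 CPM crushed (2.13 ± 0.27 and 2.07 ± 0.27, adjusted p = 0.000213 and 0.000246). The groups did not overlap.

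Gem, an RGK GTPase that binds calcium channel beta subunits and lowers surface channel number, stood at 1.76 and 1.17 CPM without Cre and 22.7 and 17.9 CPM with Cre in crushed mice (3.76 ± 0.49, adjusted p = 0.000263). Calm2, a gene for the calmodulin that binds the tails of both channel kinds, was higher by 2.24 ± 0.35 uncrushed (adjusted p = 0.000693). Syt2, a calcium sensor of fast release, was higher by 1.61 ± 0.24 uncrushed (adjusted p = 0.000543). Camk2a, the forebrain-rich form of CaM kinase II, was lower, at 71.7 and 58.2 against 15 and 14.8 CPM uncrushed and 56.6 and 86.1 against 20.8 and 20.6 CPM crushed (-2.12 ± 0.27 and -1.78 ± 0.26, adjusted p = 0.000213 and 0.00044). The ankyrin scaffold Ank3, which anchors sodium channels at the initial segment, was not called, at -0.11 ± 0.25 and 0.17 ± 0.24.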

How the data were processed

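Ribosome-associated RNA was sequenced from 8 spinal cords. The deposited gene tables hold, per the file headers, expected counts, TPM, FPKM and the length and effective length of each gene (in bases, of the type other). The submitters' processing notes name Bowtie2 2.2.0 and RSEM 1.2.12. TPM and FPKM, as deposited, were not tested. The sources used here name no build, annotation or strandedness, and reads of overlapping genes cannot be told apart. Symbols were matched to 37607 of 38924 identifiers (96.6%).

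Expected counts as deposited were rounded, and edgeR 4.0.16 (R 4.3.3) was run on the 15208 genes that passed filterByExpr at a minimum count of 10 and total of 15. After TMM scaling, the 8 libraries entered 1 quasi-likelihood fit of the 4 group means, with two-sided tests and Benjamini-Hochberg adjustment over all genes. Standard errors are the log2 fold change over the square root of F and are approximate, most of all at few counts. CPM per kilobase used the mean effective length over the 8 libraries. In these libraries 3 counts were worth 0.19 to 1.17 CPM, and such limits cover counting error only.

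The channel genes, partners, markers and the tests were chosen with earlier results of these data known. Results for some of the 40 channel genes and their partners are not reported here; the others were eligible to be named, as were those partners called with the smallest p, except Ank3, which was chosen after its values were seen. Alternatives were DESeq2 1.42.0, its size factors in edgeR, library size alone, no low-count filter, only the compared groups, both libraries of contradictory genotype left out, each library left out in turn, and, chosen after seeing the data, each library's own gene length. The scripts were tested on simulated data. RefSeq promoter windows are from GRCm38.p6.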

Additional observations from a re-analysis of the deposited data

How the results depend on the processing

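No paired analysis was possible because the groups share no animal number. Under scaling by library size alone the median log2 difference of all genes moved from -0.03 to 0.65 for Cre in uncrushed mice, from -0.08 to 0.06 for Cre in crushed mice, from 0.03 to 0.47 for crush with Cre and from -0.03 to 0.94 for crush without Cre. Genes called lower with Cre numbered 2 in each Cre comparison under that scaling, and 1 gene (Cacnb2) was called higher after crush without Cre. Genes called higher with Cre in uncrushed mice numbered 5 without both libraries of contradictory genotype. For crush with Cre, 1 gene (Scn4b) was called lower under DESeq2, with no low-count filter and with only the groups compared. Leaving out each library gave 8 to 10 genes higher and 2 to 7 lower in uncrushed mice (2 without animal 6, 4 without animal 3, 3 without animal 10), 4 to 8 higher and 2 to 3 lower in crushed mice (2 without 51, 35 or 52, 3 without 58), and 0 to 0 in the crush comparisons and the interaction.

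Changes of sign were followed only for the called genes and for others chosen in each comparison. The remaining channel genes were not followed and may also have changed sign. Under library size alone, Scn2b became 0.04 and Cacnb4 0.18 for Cre in uncrushed mice. Under the same scaling Cacna2d3 became 0.02 for crush with Cre and Scn1a 0.49 for crush without Cre. Leaving out 1 library moved Cacnb3 between -1.90 (without animal 4) and 0.41 (without 6) for Cre in uncrushed mice. For Cre in crushed mice it moved Scn11a between -7.37 (without 35) and 2.09 (without 58) and Cacna1h between -0.14 (without 58) and 0.89 (without 51). It moved Scn10a between -3.43 (without 35) and 3.82 (without 10) for crush with Cre, and Scn11a between -3.67 (without 35) and 5.79 (without 58) in the interaction. The cause was not tested. Over all genes, calls for Cre in uncrushed mice came to 3299 without both contradictory libraries against 6468, and calls for crush with Cre to 131 under DESeq2, 281 with no filter and 126 with only the groups compared, against 11. For crush without Cre they came to 101, 338 and 2 in those settings and 1204 under library size alone, against 11. In these libraries the depth limits what can be said of the 6 genes below the filter and of Scn10a, Scn11a, Cacna2d4 and Cacng8.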

Other observations

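The deposited effective length of a gene, an average over its transcripts weighted by their estimated share, was longer in all 4 Cre libraries than in all 4 no-Cre libraries, with a ratio of means above 1.25, for 3 of the 34 tested channel genes (8.82%) and for 2.92% of all genes tested. This measure was chosen after the data were seen. The 3 genes were Cacna1a, at 4.49 to 7.09 kilobases with Cre and 2.18 to 3.34 kilobases without, Scn9a, at 8.14 to 9.44 against 5 to 8.11 kilobases, and Scn3a, at 7.58 to 7.9 against 3.26 to 7.46 kilobases. With each library's own length in place of the mean over the 8 libraries, Cacna1a stood at a mean of 6.26 and not 9.95 CPM per kilobase in the Cre uncrushed mice. The no-Cre level on that scale is not given here. The Cacna1a tests took no account of length, so like CPM with and without Cre does not mean a like level per kilobase. None of the channel genes was shorter with Cre by the same rule, against 1.81% of all genes. Some genes had lengths that did not overlap but did not reach the ratio. Scn1a was shorter with Cre in that way, at 3.38 to 4.39 against 4.47 to 5.39 kilobases. Scn8a was longer, at 10.4 to 10.7 against 8.96 to 9.79 kilobases.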
